A study of Mus musculus with 3 samples.

Results

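The clustered histone genes encode the replication-dependent histones, the proteins around which DNA is wound. Their members were taken as every gene name on the arrays that begins with Hist1h, Hist2h, Hist3h or Hist4h, which gave 49 of 34821 gene names, measured by 57 probes of 60 bases. They comprised 6 genes of the linker histone H1, 14 of H2A, 12 of H2B, 8 of H3, and 9 of H4. By the array's annotation (mm9), 37 of them lie on chromosome 13, 7 on chromosome 3, 3 on chromosome 11, and 1 on chromosome 6.

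Bone marrow-derived macrophages (BMDMs) of C57BL/6J mice, grown for 4 to 6 days with M-CSF from L929-conditioned medium, were stimulated for 20 h and profiled on 3 one-colour Agilent arrays. The array named CpG held cells given CpG DNA, a ligand of the receptor TLR9. The array named IFN-γ + αIL-10R held cells given interferon-γ with a blocker of the IL-10 receptor (IL-10RB in the labels), and Triple held cells given all 3 agents. There was 1 array per condition and no unstimulated array, so no difference below has a replicate check or a p-value, and each pair of comparisons shares an array. The differences of processed signal were therefore read as sizes only, beside a technical SD of 0.13 for a log2 fold between single spots, which came from probes spotted repeatedly on each array.

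A cell that copies its DNA needs new histones at the same moment, and the clustered genes are transcribed mainly in S phase. Their mRNAs are unusual in having no intron and, as a rule, no poly(A) tail. They end instead just after a short stem-loop that the stem-loop binding protein Slbp holds, and they decay quickly when replication stops. Some clustered genes can also give longer transcripts that run past the stem-loop and carry a poly(A) tail, and such forms are known from differentiated cells. The labelling kit here starts from oligo-dT primers, so the arrays may read tailed and untailed histone mRNA with unequal efficiency, and a level on 1 probe cannot be set against that on another.

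The stem-loop could be seen in the probes themselves, and the windows of 30 bases are shown because the position of the probe around this element matters below. A search for a stem of 6 bases beginning with GG, a loop of 4 bases beginning with T, and the reverse complement of the stem found it whole in 6 member probes. The capitals mark the stem-loop, or the part of it that the probe holds.
Hist1h3a: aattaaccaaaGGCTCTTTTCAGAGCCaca
Hist1h3i: ataacaaaaGGCTCTTTTCAGAGCCccctc
Hist1h3g: cactttaaaGGCTCTTCTTAGAGCCaccca
Hist1h4m: caactaaaGGCCCTTTTCAGGGCCatccaa
Hist2h2bb: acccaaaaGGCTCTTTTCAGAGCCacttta
Hist2h2aa2, second probe: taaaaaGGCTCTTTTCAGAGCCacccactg
Hist1h2ab: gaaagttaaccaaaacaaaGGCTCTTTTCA
Hist1h2ae: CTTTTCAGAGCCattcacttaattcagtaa
In Hist1h3a, Hist1h3i, Hist1h3g, Hist1h4m and Hist2h2bb the probe went on for only 3 to 6 bases after the stem-loop. The probe of Hist1h2ab stopped inside it. The second probe of Hist2h2aa2 instead had 38 bases after the stem-loop, and that of Hist1h2ae had 48, so that both read mostly sequence beyond the usual end of the mRNA.

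The second set shown is the end of the H2A coding sequence, because 7 H2A probes lie there and are nearly one sequence. Each shared at least 25 bases in a row with another of the set, and the capitals mark the bases that differ from the Hist1h2ah probe where the probes overlap, compared without gaps.
Hist1h2ah: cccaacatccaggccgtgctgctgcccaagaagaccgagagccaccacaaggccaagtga
Hist1h2af: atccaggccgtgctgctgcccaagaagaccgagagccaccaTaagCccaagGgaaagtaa
Hist1h2ak: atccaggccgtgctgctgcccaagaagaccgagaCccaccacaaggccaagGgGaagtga
Hist1h2an: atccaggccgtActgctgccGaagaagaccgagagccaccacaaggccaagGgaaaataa
Hist1h2ag: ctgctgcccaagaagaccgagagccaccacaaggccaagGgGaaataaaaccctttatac
Hist2h2aa2: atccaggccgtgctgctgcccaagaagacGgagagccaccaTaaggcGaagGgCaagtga
Hist2h2ac: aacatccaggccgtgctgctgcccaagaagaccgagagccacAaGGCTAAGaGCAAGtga
The number of differing bases was 2 for Hist1h2ag over the 42 bases compared, 3 each for Hist1h2af, Hist1h2ak and Hist1h2an over 54, 5 for Hist2h2aa2 over 54, and 13 for Hist2h2ac over 57, where bases shifted by a gap are counted as differing. The Hist1h2ah probe is at chr13:22127035-22127094 on the minus strand and that of Hist2h2ac at chr3:96024378-96024437 on the minus strand (both mm9). Signal on any of these probes can come from several H2A mRNAs at once, so they count as 7 gene names but are not 7 independent readings.

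Many of the clustered histone genes were lower in Triple. Against IFN-γ + αIL-10R they were mainly of H1, H2A, H3 and H4, whereas several H2B genes were not lower. In that comparison, 3 of 5 H1, 8 of 14 H2A, 2 of 11 H2B, 5 of 8 H3 and 7 of 9 H4 genes were lower by over 2-fold. Against CpG the H2B median was below 0 as well. Of the 49 genes, 47 were measured on all arrays, and 36 of these were well above background on all 3 arrays. The remaining 2, Hist1h1d and Hist1h2bq, were left out because their spots carried an outlier mark, and neither was well above background on any array. Against IFN-γ + αIL-10R, 25 of 47 members (53.2%) were lower in Triple by over 2-fold, beside 5.00% of all 33597 measured genes. By contrast, 1 member (2.13%) was higher by over 2-fold, beside 3.53% of all genes. Against CpG, 17 members were lower in Triple past the same 2-fold line and 1 was higher, beside 4.55% and 4.08% of all genes. Between the single treatments, 6 members (12.8%) were higher in CpG by over 2-fold, beside 2.75% of all genes, and 3 (6.38%) were lower, beside 3.18%. The 17 members lower than CpG were also among the 25, so that Triple was past 2-fold under both other conditions for 17 members. It was past 2-fold above both for none. Well above background on at least 1 array were 42 of the 47 members, but 18812 of the 33597 genes. Among those so on all 3 arrays, 21 of 36 members were past 2-fold lower in Triple than in IFN-γ + αIL-10R, beside 1310 of 15894 genes. Against CpG, 14 were, beside 1113 genes. In CpG over IFN-γ + αIL-10R, 2 were lower and 5 higher, beside 770 and 595 genes. Fewer cells that express these genes and less histone mRNA per cell cannot be told apart in bulk RNA.

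Over the 36 members well above background on all arrays, the median log2 fold of Triple over IFN-γ + αIL-10R was -1.19, beside -0.05 over the 15894 genes that met the same condition. The median of Triple over CpG was -0.83, also beside -0.05 over all such genes. The median of CpG over IFN-γ + αIL-10R was -0.38, beside 0.00 over all such genes. The signal was lowest in Triple for 23 of the 36 members (63.9%), beside 40.5% of all genes. The order IFN-γ + αIL-10R, then CpG, then Triple was the one seen most often: 21 members (58.3%) had it, as had 20.7% of all genes. The median of Triple over IFN-γ + αIL-10R was weaker, at -0.70, when near-identical probes were counted once, by which the 7 H2A probes, a pair of H3 and a pair of H4 gave 1 value each.

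**Figure D1:**
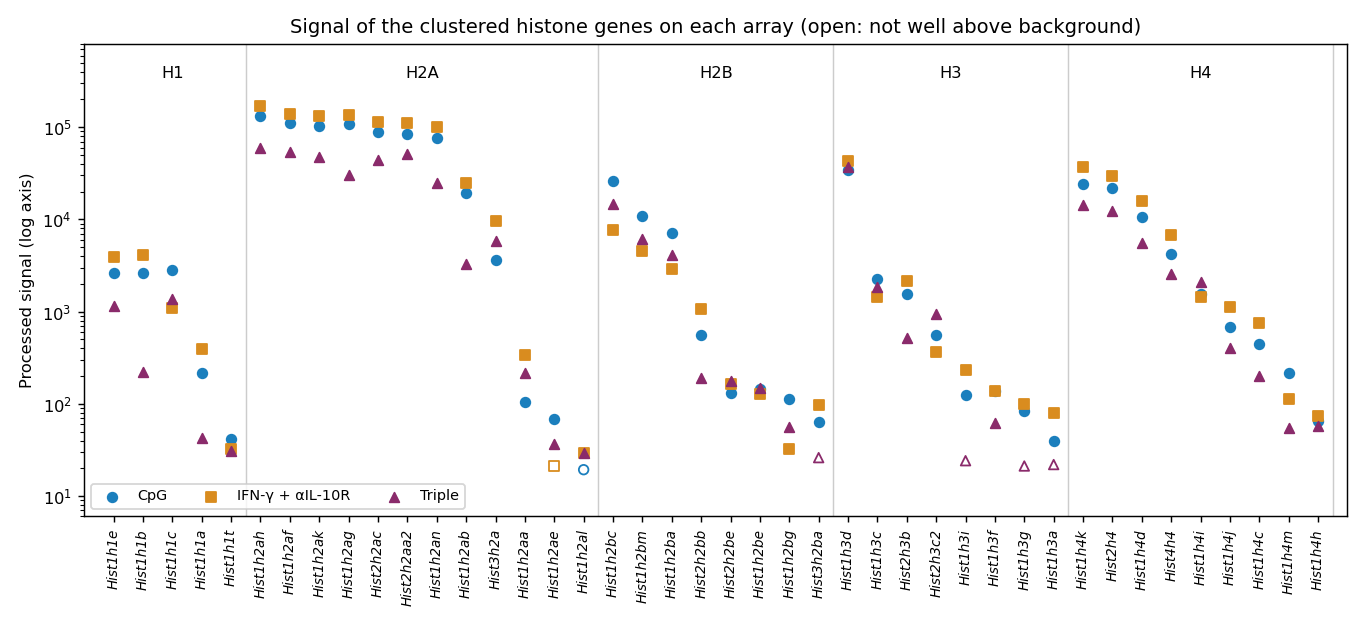
Processed signal (log axis) of the 42 clustered histone genes that were well above background on at least 1 array, by histone class and ordered by mean signal. Circles are CpG, squares IFN-γ + αIL-10R, and triangles Triple. Open symbols were not well above background. In H2A and H4 the triangles mostly lie lowest, whereas in H2B several genes have the square lowest.

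H1 histones bind the linker DNA between nucleosomes. The largest difference of all members was in Hist1h1b (now H1f5), with a signal of 2614 in CpG, 4155 in IFN-γ + αIL-10R, and 222 in Triple. Triple was thus 18.3-fold lower than IFN-γ + αIL-10R and 11.3-fold lower than CpG. Hist1h1a (H1f1) ran the same way, with 214, 395 and 42.2 in that order, and was 9.15-fold lower in Triple than in IFN-γ + αIL-10R, or 4.00-fold with normexp background correction. For Hist1h1e (H1f4) the signals were 2615, 3925 and 1140, a 3.37-fold difference between Triple and IFN-γ + αIL-10R. These 3 genes were lower in CpG than in IFN-γ + αIL-10R too, but by less than 2-fold.

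Hist1h1c (H1f2) stood apart from them. Its signal was 2841 in CpG, 1106 in IFN-γ + αIL-10R, and 1384 in Triple, so CpG was 2.52-fold above IFN-γ + αIL-10R and Triple lay close to the latter. For this gene Triple was 1.98-fold lower than CpG. Its probe starts at base 1342 of the transcript, whereas the RefSeq gene model is 725 bases long. The testis form Hist1h1t gave signals of 41.2, 32.5 and 30.7, just above background on all arrays.

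H2A histones form part of the nucleosome core. The 7 coding-end probes printed above gave signals between 75971 and 169586 in CpG and IFN-γ + αIL-10R and between 24888 and 58817 in Triple. No spot on any array was saturated. Hist1h2ah gave 132911 in CpG, 169586 in IFN-γ + αIL-10R, and 58817 in Triple, a 2.82-fold difference between the last pair. Over the set, Triple was between 2.11-fold (Hist2h2aa2) and 4.29-fold (Hist1h2ag) lower than IFN-γ + αIL-10R. CpG lay slightly under IFN-γ + αIL-10R on each of these probes, by 1.27-fold to 1.36-fold.

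The larger difference in H2A was on a probe of its own. Hist1h2ab, whose probe stops inside the stem-loop, gave 19161 in CpG, 25113 in IFN-γ + αIL-10R, and 3302 in Triple. Triple was 7.44-fold lower than IFN-γ + αIL-10R and 5.58-fold lower than CpG. A separate probe at the first bases of Hist1h2ak, outside the near-identical stretch, gave 10245, 14239 and 3049, a 4.57-fold difference between Triple and IFN-γ + αIL-10R.

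A pair of H2A genes had another order, with CpG lowest. Hist1h2aa, the H2A gene of the testis, gave 105 in CpG, 336 in IFN-γ + αIL-10R, and 215 in Triple. It was the only member for which Triple exceeded CpG by over 2-fold (2.12-fold, but 1.75-fold with normexp), and CpG was 3.25-fold under IFN-γ + αIL-10R. Hist3h2a gave 3638, 9647 and 5829 in the same order, and CpG was 2.70-fold lower than IFN-γ + αIL-10R. Its probe starts at base 767, past the end of a gene model of 508 bases. Among the rest, Hist1h2ac and Hist2h2ab were not well above background on any array, and Hist1h2al was near background throughout.

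H2B histones pair with H2A in the core, but against IFN-γ + αIL-10R their probes did not follow those of H2A. Of 7 H2B genes well above background on all arrays, 6 were above 0 on the log2 scale for Triple over IFN-γ + αIL-10R. The class median was 0.46, and 7296 of all 15894 such genes were above 0. With spike-in scaling 5 of 7 were above 0, since Hist2h2be then lay below it. For Triple over CpG the class median was -0.775, beside -0.05 over all such genes. In that comparison 5 of the 7 were below 0, beside 8671 of 15894 genes. For CpG over IFN-γ + αIL-10R the class median was 1.23. The brightest H2B gene was Hist1h2bc, with 26325 in CpG, 7716 in IFN-γ + αIL-10R, and 14750 in Triple. CpG was 3.35-fold above IFN-γ + αIL-10R and Triple was 1.95-fold higher.

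Hist1h2bm gave 10871 in CpG, 4550 in IFN-γ + αIL-10R, and 6113 in Triple. Hist1h2ba, the testis H2B gene, gave 7134, 2919 and 4097. Hist1h2bg was dim and had the same order, with 112, 32.7 and 55.6. For these genes CpG lay 2.35-fold, 2.40-fold and 3.38-fold above IFN-γ + αIL-10R, respectively. The exception in the class was Hist2h2bb, read by a probe that ends just past the stem-loop, which gave 560, 1065 and 192 and was 5.44-fold lower in Triple than in IFN-γ + αIL-10R. Averaged with its second probe, which was not well above background, the difference was 2.32-fold. Hist3h2ba gave 63.8 and 96.4 in the single treatments and was not well above background in Triple, at least 3.58-fold under IFN-γ + αIL-10R. Hist2h2be and Hist1h2be differed by less than 1.5-fold in all 3 comparisons, at signals from 129 to 176. Hist1h2bb, Hist1h2bp and Hist3h2bb-ps were not well above background on any array.

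**Figure D2:**
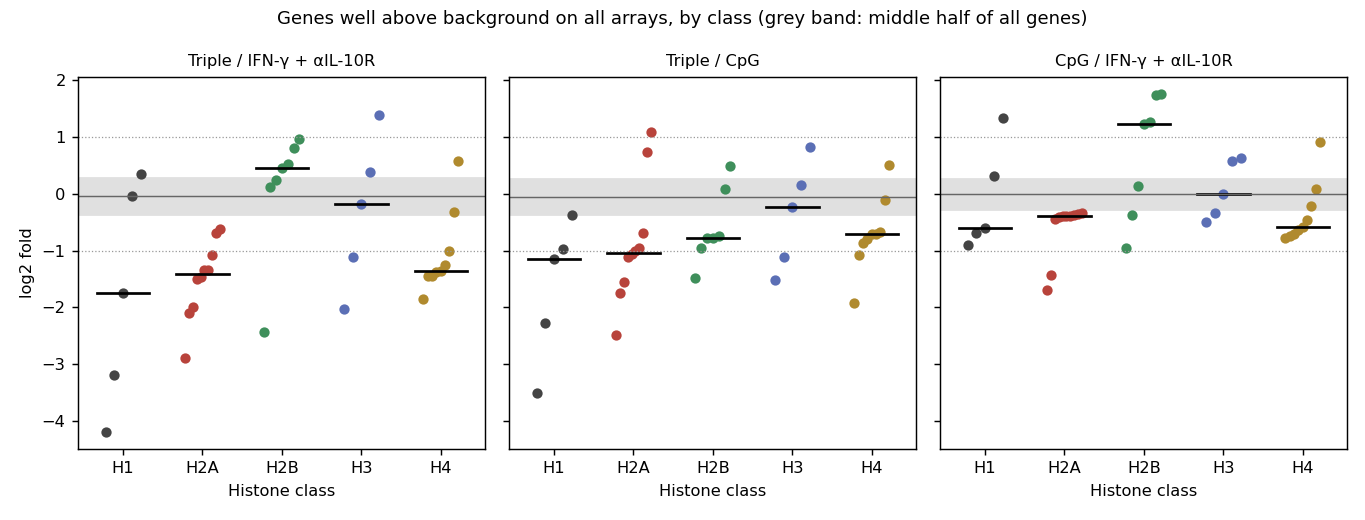
log2 folds of the 36 members well above background on all 3 arrays, by histone class, in the 3 comparisons. Each point is a gene, black bars are class medians, the grey band runs from the lower to the upper quartile of all genes measured in the same way, and dotted lines mark 2-fold. The medians of H1, H2A and H4 lie under -1 for Triple over IFN-γ + αIL-10R, and that of H2B lies above 0.

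H3 carries much of the modification of chromatin, and its genes were divided. Hist1h3i gave 126 in CpG, 235 in IFN-γ + αIL-10R, and 24.2 in Triple, where it was not well above background, so that Triple was at least 8.72-fold lower than IFN-γ + αIL-10R. Hist1h3g and Hist1h3a were also well above background in the single treatments but not in Triple, at least 3.68-fold and at least 2.93-fold under IFN-γ + αIL-10R. All 3 probes hold the stem-loop near their end. With normexp, Hist1h3i differed by 3.12-fold and Hist1h3a by 1.46-fold. Hist2h3b gave 1535, 2138 and 512, a 4.08-fold difference.

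The brightest H3 gene went otherwise. Hist1h3d gave 34034 in CpG, 42549 in IFN-γ + αIL-10R, and 36602 in Triple, and no comparison passed 1.5-fold. Hist1h3c gave 2261, 1436 and 1840. Its probe shares at least 25 bases in a row with that of Hist1h3f, which gave 139, 137 and 61.7 and was 2.18-fold lower in Triple than in IFN-γ + αIL-10R, or 1.48-fold with normexp. Hist2h3c2 was the only member for which Triple exceeded IFN-γ + αIL-10R by over 2-fold, with 553, 365 and 940, a 2.63-fold difference. The array's annotation gives its probe no genome position, and no RefSeq gene matched its transcript.

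H4 pairs with H3 in the nucleosome core. Of its 9 genes, 7 were lower in Triple than in IFN-γ + αIL-10R by over 2-fold, and none passed 2-fold between CpG and IFN-γ + αIL-10R. The brightest, Hist1h4k, gave 24340 in CpG, 37359 in IFN-γ + αIL-10R, and 14276 in Triple. Hist2h4 gave 22078, 29858 and 12243, and Hist1h4d gave 10616, 15675 and 5606. The differences between Triple and IFN-γ + αIL-10R were 2.56-fold, 2.39-fold and 2.74-fold, respectively. Hist4h4 on chromosome 6, with 4230, 6821 and 2557, differed by 2.61-fold, so the isolated gene lay in the range of those in the large clusters.

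Among the dimmer H4 genes, Hist1h4c was 3.63-fold and Hist1h4j 2.72-fold lower in Triple than in IFN-γ + αIL-10R. Hist1h4m, read over the stem-loop, had CpG highest, with 217, 113 and 55.3, and its difference between Triple and IFN-γ + αIL-10R, just past the line, was under 2-fold with 6 alternatives, down to 1.40-fold with normexp. Hist1h4h was near background and differed by less than 1.5-fold.

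There were 7 genes with several probes. Second probes of Hist2h2bb and Hist4h4 were not well above background on any array, and that of Hist2h4 only in IFN-γ + αIL-10R. Averaged over their probes, Hist2h4 and Hist4h4 were 1.67-fold and 1.61-fold lower in Triple than in IFN-γ + αIL-10R. Both probes of Hist1h2ak were lower in Triple, as given above. The 2 probes of Hist1h4k gave a log2 fold of -1.36 and -1.35 for Triple over IFN-γ + αIL-10R, though the dimmer one had signals of 2453, 4013 and 1544. The probes of Hist2h2aa2 gave opposite signs. Its coding-end probe, at chr3:96043781-96043840 on the minus strand (mm9), gave 85241 in CpG, 109916 in IFN-γ + αIL-10R, and 50915 in Triple, 2.11-fold lower in Triple than in IFN-γ + αIL-10R. Its second probe, at chr3:96043669-96043728 and mostly beyond the stem-loop, gave 6005, 5057 and 10901, 2.20-fold higher in Triple. The mean of the 2 probes gave a log2 fold of 0.03, so that the direction of this gene depends on the probe.

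Hist1h4i had 3 probes, none past 2-fold in any comparison. The coding probe, starting at base 23, gave 462 in CpG, 415 in IFN-γ + αIL-10R, and 382 in Triple. A probe at base 483 of the transcript, past a gene model of 403 bases, gave 1550, 1442 and 2118. The last, matched to no gene model, gave 1329, 682 and 1184.

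The same split was seen when all member probes were grouped by position, a grouping made after the values were seen and given without a test. Of the 55 measured probes, 37 lay within the RefSeq gene model, 13 lay past its end or belonged to a gene model of more than 1000 bases, and 5 matched no gene model. Within the gene model, 28 of 31 probes well above background on all arrays were below 0 for Triple over IFN-γ + αIL-10R, with a median of -1.36. Past its end or in long models, 7 of 8 such probes were above 0, with a median of 0.47. Over the 15894 genes that met the same condition, 8598 were below 0 and 7296 above it. The 31 probes include the 7 near-identical H2A probes, which are not independent readings. Over the other scalings tried, between 26 and 28 of the 31 were below 0, and between 6 and 7 of the 8 were above it. For Triple over CpG the medians were -0.96 and 0.29, and for CpG over IFN-γ + αIL-10R they were -0.42 and 0.18. The exceptions within the gene model were Hist1h2ba, Hist1h2bm and Hist1h3c, whose log2 folds were 0.52, 0.46 and 0.39. The exception outside it was Hist3h2a, at -0.70. Probes outside it that were not well above background on every array were left out of these counts. Among them, Hist3h2ba was at least 3.58-fold lower in Triple than in IFN-γ + αIL-10R, and Hist1h2ae at least 1.41-fold higher. Position was confounded with class, since 4 of the 8 probes outside were of H2B, and these cannot be told apart.

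**Figure D3:**
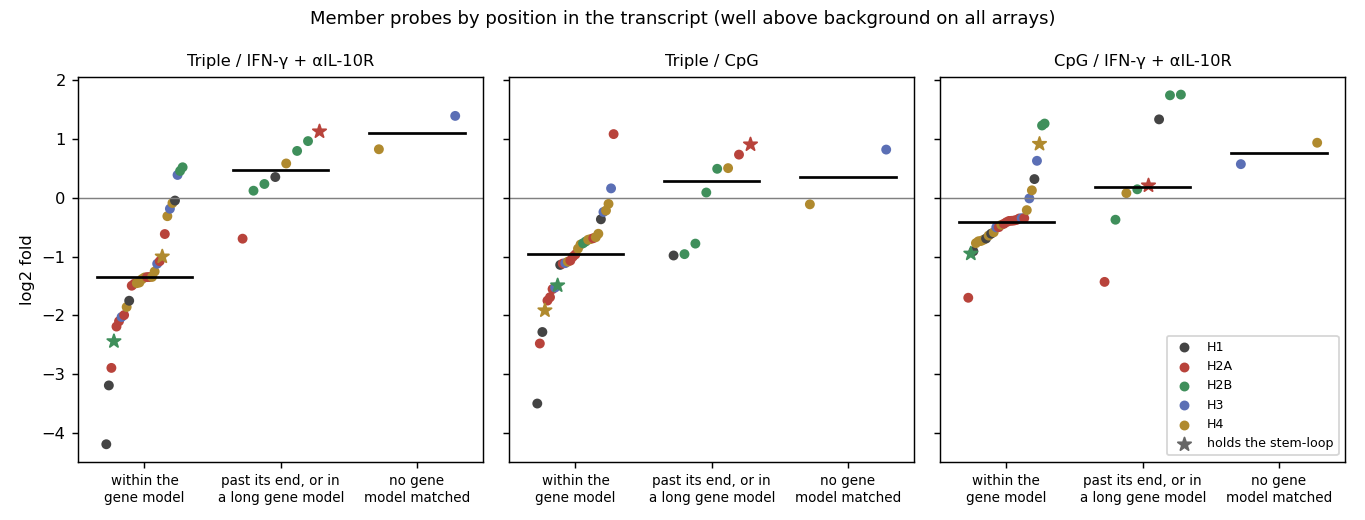
log2 folds of the 41 member probes well above background on all arrays, by the position of the probe in the transcript. Points are coloured by class, stars hold the whole stem-loop, and bars are medians. For Triple over IFN-γ + αIL-10R the medians are -1.36 within the gene model and 0.47 past its end or in long gene models.

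Promoters of the clustered genes carry known elements, among them a TATA box, CCAAT boxes bound by NF-Y, an octamer in H2A and H2B genes bound by Oct-1 (Pou2f1), and the H1 box. Of 46 members matched to a current RefSeq gene, 41 had a promoter sequence (RefSeq, GRCm38.p6). In the 250 bases before the start, on either strand, TATAAA was found in 22 of the 41 (53.7%), beside 13.0% of all 27025 promoters. CCAAT was found in 35 (85.4%), beside 34.5% of all, and in 33 of the 33 promoters outside H4 against 2 of 8 in H4. The octamer ATTTGCAT was found in 12 (29.3%), beside 1.61% of all, and these comprised 7 of 13 H2A and 5 of 9 H2B promoters. AAACACA, the H1 box, was searched after the promoters had been looked at and was in 5 of 6 H1 promoters, beside 6.22% of all. None of these motifs is contained in another. Where the windows of neighbouring genes overlap, as in the pairs given below, the same bases can count for both promoters.

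Hist1h1c was not lower in Triple than in IFN-γ + αIL-10R, unlike Hist1h1b, the H1 gene with the largest difference. The Hist1h1c probe lies past the end of its gene model, whereas that of Hist1h1b lies within its own. Gene and probe position therefore cannot be told apart here, and a link of the folds to promoter sequence was not tested. The 150 bases before the start are shown for both, with these motifs in capitals. They are chr13:21780626-21780775 on the minus strand for Hist1h1b and chr13:23738657-23738806 on the plus strand for Hist1h1c (GRCm38.p6).
Hist1h1b: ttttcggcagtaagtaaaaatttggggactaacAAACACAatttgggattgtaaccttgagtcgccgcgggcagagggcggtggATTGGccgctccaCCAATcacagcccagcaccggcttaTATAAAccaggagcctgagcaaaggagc
Hist1h1c: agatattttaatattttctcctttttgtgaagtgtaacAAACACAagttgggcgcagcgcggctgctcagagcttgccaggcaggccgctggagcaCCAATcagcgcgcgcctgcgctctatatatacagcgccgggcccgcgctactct
Both held the H1 box and a CCAAT box, and only Hist1h1b held the exact letters TATAAA in this window. Variants of the TATA box, such as the run of alternating t and a printed for Hist1h1c, were not searched. A match of letters is a description of the sequence and not of a bound site.

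H2A and H2B genes often lie head to head and share a promoter. In 3 pairs of members the promoter windows of the RefSeq table overlapped. For Hist1h2bg and Hist1h2ae, with 179 bases between the starts, CpG was the highest array for both: Hist1h2bg was 3.38-fold above IFN-γ + αIL-10R, and Hist1h2ae, at 68.5 in CpG and 36.8 in Triple, at least 2.53-fold. With normexp these were 1.75-fold and 1.37-fold, neither past 2-fold. The probes of both lie past the usual end of the mRNA. For Hist1h2aa and Hist1h2ba, with 280 bases between the starts, the values were opposite: CpG was the lowest array for Hist1h2aa and the highest for Hist1h2ba. For Hist1h2an and Hist1h2bp, Hist1h2an was 3.99-fold lower in Triple than in IFN-γ + αIL-10R, and Hist1h2bp was not well above background on any array. The 150 bases before the start of Hist1h2bg are shown as an example, with CCAAT, the octamer and TATAAA in capitals. They lie at chr13:23571250-23571399 on the plus strand (GRCm38.p6) and are part of the sequence between the 2 starts. The bases nearest Hist1h2ae, where a further CCAAT lies, are left out.
Hist1h2bg: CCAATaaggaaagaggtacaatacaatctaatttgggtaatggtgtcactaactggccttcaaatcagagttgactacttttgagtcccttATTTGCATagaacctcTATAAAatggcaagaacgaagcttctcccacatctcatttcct

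Genes of DNA replication, with which clustered histones are normally expressed, were mostly lower in Triple too. Of 36 listed genes, 27 were lower in Triple than in IFN-γ + αIL-10R by over 2-fold, beside 5.00% of all genes. None was higher by over 2-fold, beside 3.53% of all genes. The median log2 fold was -1.65 over the 35 well above background. Tk1, a thymidine kinase, gave 6098 in CpG, 7546 in IFN-γ + αIL-10R, and 303 in Triple. Rrm2, of ribonucleotide reductase, gave 10983, 14975 and 1141, and Ccna2, the cyclin of S phase, gave 3433, 4940 and 371. Pcna, the clamp of the polymerases, gave 48837, 76982 and 21664, and Mcm2, of the replicative helicase, gave 3044, 3177 and 841. Ccne1, cyclin E1, went the other way, with 4864, 7959 and 15043, as did the dimmer Tyms, with 118, 106 and 206. Ccne2 was not well above background.

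Histone genes outside the clusters, many of which are expressed outside S phase too and have poly(A) tails, were divided. Of 10 on the array, 5 were lower in Triple than in IFN-γ + αIL-10R by over 2-fold, beside 5.00% of all genes. Cenpa, the H3 of centromeres, gave 1071, 1521 and 207, the largest difference of this list. H2afx and H2afz were 2.29-fold and 2.12-fold lower in Triple. The H3.3 genes differed from these: H3f3b gave 42625, 52155 and 50847, and H3f3a gave 44248, 28405 and 38017. H1f0 was near background, at most 52.8 on any array. The probe of H2afj, another of the 5, shares at least 25 bases in a row with H2A coding-end probes printed above.

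Of 20 histone chaperones, 5 were lower in Triple than in IFN-γ + αIL-10R by over 2-fold, beside 5.00% of all genes. They included Asf1b (7102, 9670 and 2330), Chaf1a (2048, 2326 and 709) and Chaf1b (6943, 9029 and 1941), which place new histones behind the replication fork, and Nasp (886, 1062 and 339), which holds free histones. Hat1, which acetylates new H4, gave 2634, 3575 and 4905. Against CpG, 6 of the 20 were lower in Triple by over 2-fold, beside 4.55% of all genes. Daxx and Mms22l were higher in Triple than in CpG, by 2.04-fold and 2.57-fold, beside 4.08% of all genes past 2-fold.

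The factors that make histone mRNA mostly stayed within 2-fold, as did most genes on the array. Of 21 genes of histone mRNA processing, 1 was lower in Triple than in IFN-γ + αIL-10R by over 2-fold, beside 5.00% of all genes. The list median was -0.03. Slbp gave 1258 in CpG, 1334 in IFN-γ + αIL-10R, and 835 in Triple, a 1.56-fold difference. Casp8ap2 gave 748, 815 and 564, and the U7 snRNP proteins Lsm10 and Lsm11 gave 8400, 7406 and 8148, and 472, 410 and 347. Zfp473, also of that complex, was the 1 gene past 2-fold, at 33.7, 69.8 and 25.4. This gene was near background and not well above it in Triple, at least 2.59-fold under IFN-γ + αIL-10R. Npat, the coactivator of the clusters, was not well above background on any array. Of 11 factors at histone promoters, the 1 past 2-fold was E2f1 (4737, 5153 and 2176), lower in Triple, as were 5.00% of all genes against IFN-γ + αIL-10R. Pou2f1 gave 744, 814 and 689.

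**Figure D4:**
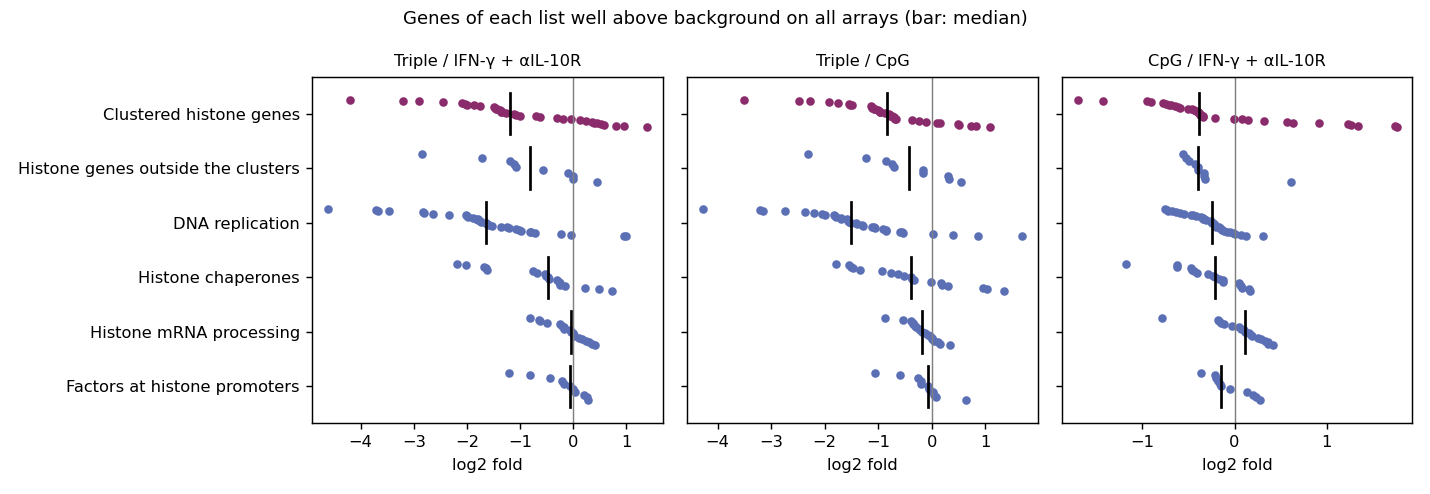
log2 folds of the clustered histone genes and of 5 related lists, for genes well above background on all arrays, in the 3 comparisons. Points are genes and bars are medians. For Triple over IFN-γ + αIL-10R the medians are -1.19 for clustered histone genes, -1.65 for DNA replication, and -0.03 for histone mRNA processing.

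The cells' identity was read from marker genes. All 6 macrophage markers on the array were well above background in every condition, with summed signals of 555383 in CpG, 567034 in IFN-γ + αIL-10R, and 431310 in Triple. Well above background on at least 1 array were 2 of 4 T cell markers (Cd3e and Lck, but not Cd3d or Cd3g), with summed signals of 970, 1050 and 968 in the same order. Among B cell markers, Cd79b gave 801, 182 and 108, 7.15-fold lower in Triple than in CpG, Cd79a gave 66.6, 75.5 and 43.6, and Ms4a1 and Pax5 were not well above background on any array. Of 7 neutrophil markers 5 were, with sums of 3849, 9443 and 4879, and Mpo and Prtn3 were not. Ly6g (555, 7699 and 2658) made up most of that sum in IFN-γ + αIL-10R and in Triple, and Elane (2839, 1615 and 1539) most of it in CpG. S100a8 ran the other way from Ly6g (297, 55.7 and 517), as did Camp (72.9, 17.6 and 139). S100a9 gave 58.0, 38.3 and 8.10 and was not well above background in Triple. Likewise 2 of 4 dendritic cell markers were (36120, 36042 and 29888, nearly all from Siglech), 3 of 5 fibroblast markers (544, 332 and 488), 2 of 3 mast cell markers (147, 87 and 97), and none of 5 erythroid markers. Their part in the histone values was not tested.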

How the data were processed

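The authors deposited 1 Agilent Feature Extraction 10.10.1.1 file per array, with processed signal intensity per spot after spatial detrending, and a table of log2 values. That table equalled log2 of the same intensity minus 1 constant per array, and its column medians were -4.26, -4.38 and -4.27 (CpG, IFN-γ + αIL-10R, Triple). RNA (0.1 ug) was labelled with Cy3.

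Controls were removed, as were spots that the software marked as outliers (3.04%, 3.78% and 3.33%). Under 50% of spots (46.0%, 44.8% and 44.4%) were well above background. Log2 intensity was therefore centred per array on the 75th percentile of the 21233 probes that were so on every array (signals 4550, 4473 and 4377). A gene was read from its brightest probe. A dim signal was raised to the array's lowest signal well above background, so that folds against it are written "at least". A gene counted as past 2-fold if the brighter array was well above background. With 1 array per condition no test was run, and the number of arrays limits the precision.

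Each member probe had 1 spot. Probe positions are those of the array annotation (mm9). Promoters and gene models are of RefSeq GRCm38.p6, and 52 of 57 member probes matched one by accession. The text names up to 8 genes per class by mean signal, the 5 largest differences in each direction, genes whose probes disagree, and fixed genes of the related lists. Members and lists were chosen with earlier results of these data known. Steps were tested on simulated data. Alternatives included normexp (offset 50, limma 3.58.1, R 4.3.3), other scalings, filters, probe rules and thresholds. A marker gene of the lists is not reported here.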

Additional observations from a re-analysis of the deposited data

How the results depend on the processing

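No paired analysis was possible because no condition held a second array. The median of Triple over IFN-γ + αIL-10R over members was -1.32 with spike-in scaling, -0.87 with the mean of all probes, and, by 2 alternatives chosen after seeing the data, -0.70 with 1 probe per group of near-identical probes and -1.36 without probes of extended transcripts. That of Triple over CpG was -0.96 without the latter. Members past 2-fold above IFN-γ + αIL-10R in Triple numbered 2 with the 75th percentile over all probes, median scaling, the deposited table, each probe by itself, or no filter. Members past 2-fold below IFN-γ + αIL-10R in Triple numbered 20 with normexp. They numbered 18 with near-identical probes counted once, which also leaves fewer members. For Triple over CpG, normexp gave 0 higher and 11 lower, and spike-in scaling 0 higher. Without probes of extended transcripts, 2 members were higher in CpG than in IFN-γ + αIL-10R. At 1.5-fold, Triple over IFN-γ + αIL-10R gave 4 higher, Triple over CpG 3 higher and 30 lower, and CpG over IFN-γ + αIL-10R 14 lower. At 3-fold these comparisons gave 0 higher and 12 lower, 0 and 7, and 2 and 1. The H3 median of Triple over IFN-γ + αIL-10R was 0.10 with near-identical probes counted once, and Hist2h2aa2 was at 0.03 with the mean of its probes, both by leaving out or adding probes. Spike-in scaling moved the median of all genes to -0.18 for Triple over IFN-γ + αIL-10R. Of 195 class medians and 1323 values of named genes under the alternatives, 175 and 1228 moved by less than the technical SD. Besides those just named, 6 class medians within that SD and 12 gene values under 2-fold changed sign, among them the H3 median of CpG over IFN-γ + αIL-10R (-0.01, and 0.06 with quantile normalization). The alternatives cover the processing and not the spread between cultures.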

Other observations

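The arrays held 3 further probes whose description names a clustered histone gene but whose gene name did not begin as the rule required. A second probe for H4d gave 50307 in CpG, 69928 in IFN-γ + αIL-10R, and 25923 in Triple, a log2 fold of -1.40 for Triple over IFN-γ + αIL-10R. A probe for H2ap, which shares at least 25 bases in a row with H2A coding-end probes, gave 96105, 120615 and 24921, a log2 fold of -2.24. The probe described as an H3 reading frame was not well above background on any array. None of them entered the counts.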
